A study of Mus musculus with 4 samples.

Results

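Valve endocardium is the endothelial sheet that covers the leaflets and cushions of the heart valves, and 641 cells of this kind were found among 45551 cell barcodes from mouse ventricles. Cells were selected on measured values. A barcode was kept with 1000 to 7000 genes and at most 10% mitochondrial UMIs (unique molecular identifiers, which count RNA molecules), with less than 0.5% of UMIs from the cardiomyocyte genes Tnnt2, Actc1, Tnnc1 and Ttn, with at least 4 UMIs from the endothelial genes Pecam1, Cdh5, Emcn and Egfl7, and with less than 0.1% of UMIs from the coronary gene Fabp4. Within these cells, valve endocardium had at least 2 UMIs from Prox1, Nfatc1 and Wnt4 together, and more of these than of the mural genes Npr3, Ednrb and Adgrg6. The selected cells made up 1.41% of all barcodes, 9.03% of the 7098 endothelial cells and 11.5% of the 5555 endothelial cells low in Fabp4.

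The study profiled single cells of ventricles at embryonic day 14.5 (E14.5) to ask what endothelial Ets1 does in the growth of the ventricular wall. Controls were Tie2Cre;Ets1 fl/+ embryos, and knockouts, called Ets1 eKO, were Tie2Cre;Ets1 fl/fl embryos, with 2 libraries of each genotype and 3 pooled ventricles per library. Both groups therefore carried Tie2Cre, on a C57BL/6 background and without treatment, and the controls were heterozygous for the floxed allele, so no library had 2 unfloxed copies of Ets1. The Tie2 promoter drives Cre in endothelium and endocardium and also in blood lineages, and embryo sex is missing from the labels, which place all 4 libraries in batch 1. Below, 4 values in a row are always given in the order control replicate 1, control replicate 2, eKO replicate 1 and eKO replicate 2, and n = 2 libraries in each group.

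Valve endocardium forms in the atrioventricular canal and outflow tract, where part of the endocardium turns into the mesenchyme that fills the cushions, under Notch, BMP and TGF-beta signals. The cells that stay on the surface express the calcineurin target Nfatc1 and, on the side of the leaflet with disturbed flow, the transcription factor Prox1, while the side facing fast flow shows a flow response that includes Klf2 and Wnt ligands. ETS1 belongs to the ETS family of transcription factors, whose members bind a GGAA core in DNA and are active across endothelial cell types.

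The 641 cells came from the 4 libraries in numbers of 162, 162, 169 and 148. Their summed UMIs were 1686445, 1600919, 1392066 and 840991, and the median UMIs per cell were 9008.5, 8373.5, 7328 and 4914. The eKO replicate 2 library was thus the shallowest, and both eKO libraries were shallower than both controls. The median share of mitochondrial UMIs was 3.11%, 3.32%, 2.48% and 2.63%, lower in both eKO libraries than in both controls, as it also was in mural cells (3.68%, 3.87%, 2.90% and 2.83%) and coronary cells (2.49%, 2.58%, 2.05% and 2.02%). The libraries also differed in sex-linked RNA. Xist, the X-inactivation RNA of female cells, was at 0, 414, 392 and 589 CPM (UMIs of the gene per 1e6 UMIs of the summed cells), and the Y-linked Ddx3y was at 101, 29.4, 28.7 and 0 CPM. Control replicate 1 showed male RNA alone, eKO replicate 2 female RNA alone, and control replicate 2 and eKO replicate 1 showed both at similar levels. Sex and genotype cannot be told apart between control replicate 1 and eKO replicate 2. Hemoglobin and other erythroid RNA, summed over 8 genes, stood at 3867, 10322, 9960 and 35847 CPM, which was highest in eKO replicate 2. Pairs of libraries shared 191 cell barcodes, and 0 barcodes were valve cells in both libraries of a pair.

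The selecting genes are given as levels only, since they chose the cells. Prox1 was at 326, 292, 382 and 306 CPM, Nfatc1, the transcription factor that calcineurin activates, at 315, 326, 332 and 331 CPM, and the ligand gene Wnt4 at 790, 629, 719 and 680 CPM. All 3 were similar in the 4 libraries. In mural endocardial cells, which passed the same gates but had at least 2 UMIs from Npr3, Ednrb and Adgrg6 and more of these than of the valve genes (4603 cells), Wnt4 was at 48.8, 60.7, 75.4 and 80.9 CPM. The mural genes had low levels in valve cells. Npr3, a clearance receptor for natriuretic peptides, was at 55.7, 65.0, 72.6 and 80.9 CPM, and the endothelin receptor gene Ednrb at 37.4, 34.4, 69.0 and 73.7 CPM, with both eKO libraries above both controls. In the mural cells Ednrb was at 1077, 963, 797 and 847 CPM. Fabp4, a fatty acid carrier used to set apart 1543 coronary endothelial cells, was at 33.2, 33.1, 36.6 and 36.9 CPM in valve cells.

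Markers that the selection did not use were also present. Hapln1, which links hyaluronan to versican in cushion matrix, was at 648, 598, 578 and 593 CPM in valve cells and between 36.0 and 49.5 CPM in mural cells. Cyp26b1, which breaks down retinoic acid, was at 99.0, 118, 156 and 126 CPM in valve cells, and between 1.21 and 4.53 CPM in mural cells. Both markers were higher in valve than in mural cells of every library. Neither passed the test between genotypes (edgeR quasi-likelihood, Benjamini-Hochberg adjusted p = 0.965 for Hapln1 with a log2 fold change of -0.03 and 0.308 for Cyp26b1 with 0.45, where both eKO libraries were above both controls for Cyp26b1 and below them for Hapln1). The ligand gene Wnt9b was at 55.7, 39.4, 64.7 and 45.2 CPM in valve cells, and its highest level in mural cells was 1.19 CPM. The lymphatic marker Lyve1 was at 2.37, 2.5, 7.90 and 10.7 CPM, and 2, 4, 1 and 5 valve cells had at least 2 UMIs from lymphatic genes.

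At the edge of the selection, the 77 cells with a sum of exactly 2 UMIs from Prox1, Nfatc1 and Wnt4 had 289 CPM of Hapln1, and the 67 cells just outside, with a sum of 1 UMI, had 168 CPM. The 66 cells with 1 UMI more from the valve genes than from the mural genes had 373 CPM of Hapln1, and the 44 cells with a tie had 266 CPM. These values are pooled over libraries. In eKO replicate 1 the order at the tie was the other way, with 435 CPM just inside and 482 CPM in tied cells, while the other libraries had the higher level inside at both edges. Cyp26b1 did not follow this order. Cells with a sum of 2 UMIs had 53.3, 29.4, 229 and 61.4 CPM and those with a sum of 1 UMI had 111, 54.5, 20.0 and 109 CPM, so that it was higher outside in 3 of the 4 libraries, and at the tie it was higher outside in eKO replicate 1. The edge is thus not separated by both markers.

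**Figure D1:**
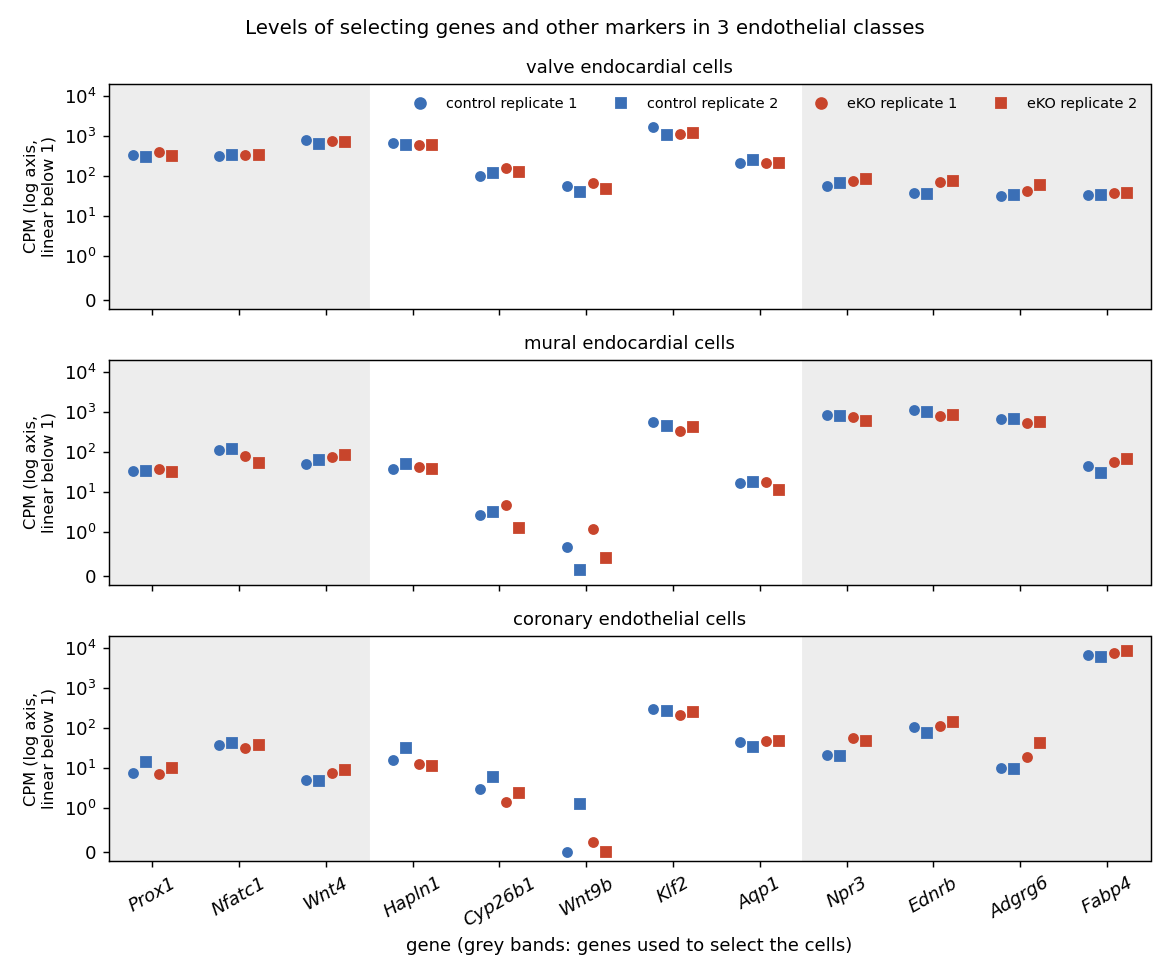
CPM (log axis) of genes used for the selection (grey bands) and of 5 other genes in valve, mural and coronary cells, with each point 1 library. Hapln1 lies between 578 and 648 CPM in the 4 libraries of valve cells and at or below 49.5 CPM in those of mural cells.

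The plot of selecting genes and markers shows the levels of the whole valve, mural and coronary classes in each library, and not those of cells at the edge. The 3 valve genes were not always found together. UMIs from all 3 were found in 35.2%, 32.1%, 21.9% and 19.6% of valve cells, and from Nfatc1 and Wnt4 alone in 25.9%, 24.7%, 33.1% and 31.1%. Cells with all 3 were thus the more frequent of these in both controls and the less frequent in both eKO libraries, which were also shallower, and the cause was not tested. UMIs from Prox1 and Nfatc1 alone were found in 19.1%, 17.3%, 20.7% and 21.6% and from Prox1 and Wnt4 alone in 3.70%, 5.56%, 4.73% and 5.41%, the fewest of the pairs in every library.

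The valve cells varied among themselves along the gene that led the selection. Cells whose largest UMI number came from Prox1 made up 29.6%, 26.5%, 30.2% and 23.0% of valve cells, those led by Nfatc1 26.5%, 32.1%, 22.5% and 21.6%, and those led by Wnt4 36.4%, 32.7%, 34.9% and 41.9%. Cells with a tie made up the remaining 7.41%, 8.64%, 12.4% and 13.5%. The Nfatc1-led share was lower and the tied share higher in both eKO libraries than in both controls. The subsets rest on the selecting genes, so their shares and levels are described with no test, and the genes below were chosen after their values were seen.

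Prox1-led cells had the highest level of Pdgfra, a receptor for platelet-derived growth factor, at 391, 428, 353 and 334 CPM, against 23.5 to 106 CPM in the other subsets. Fbn2, a microfibril protein, followed the same order with 995, 1094, 645 and 772 CPM. Foxc1, a forkhead factor of valve and lymphatic endothelium, was at 120, 182, 196 and 214 CPM in Prox1-led cells. The tight junction gene Cldn5 (202, 283, 136 and 241 CPM) and the Wnt co-receptor gene Ror1 (211, 251, 136 and 164 CPM) were also highest there in all 4 libraries.

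In Nfatc1-led cells Bmp6, a BMP ligand gene, was at 285, 202, 128 and 58.8 CPM and Mecom, a zinc finger transcription factor, at 873, 833, 429 and 218 CPM. Both were highest in this subset in every library, and both were lower in the eKO libraries than in the controls. Hmcn1, a basement membrane protein, was at 275, 375, 385 and 365 CPM, and the matrix gene Fbln2 at 324, 464, 232 and 200 CPM. Versican (Vcan), the main cushion proteoglycan, was at 1463, 1162, 1218 and 671 CPM and was highest in this subset in 3 libraries, while in eKO replicate 2 it was highest in the Wnt4-led cells.

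In Wnt4-led cells Wnt9b was at 136, 102, 170 and 99.4 CPM, and it was at most 18.8 CPM in the other subsets. The flow-induced transcription factor gene Klf2 reached 2566, 1578, 1805 and 1509 CPM, and Aqp1, a water channel, 374, 510, 413 and 345 CPM. Nos3, the endothelial nitric oxide synthase, was at 308, 234, 309 and 251 CPM and the aggrecanase gene Adamts5 at 191, 168, 163 and 139 CPM. These 5 genes and Hapln1 were highest in Wnt4-led cells in all 4 libraries.

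**Figure D2:**
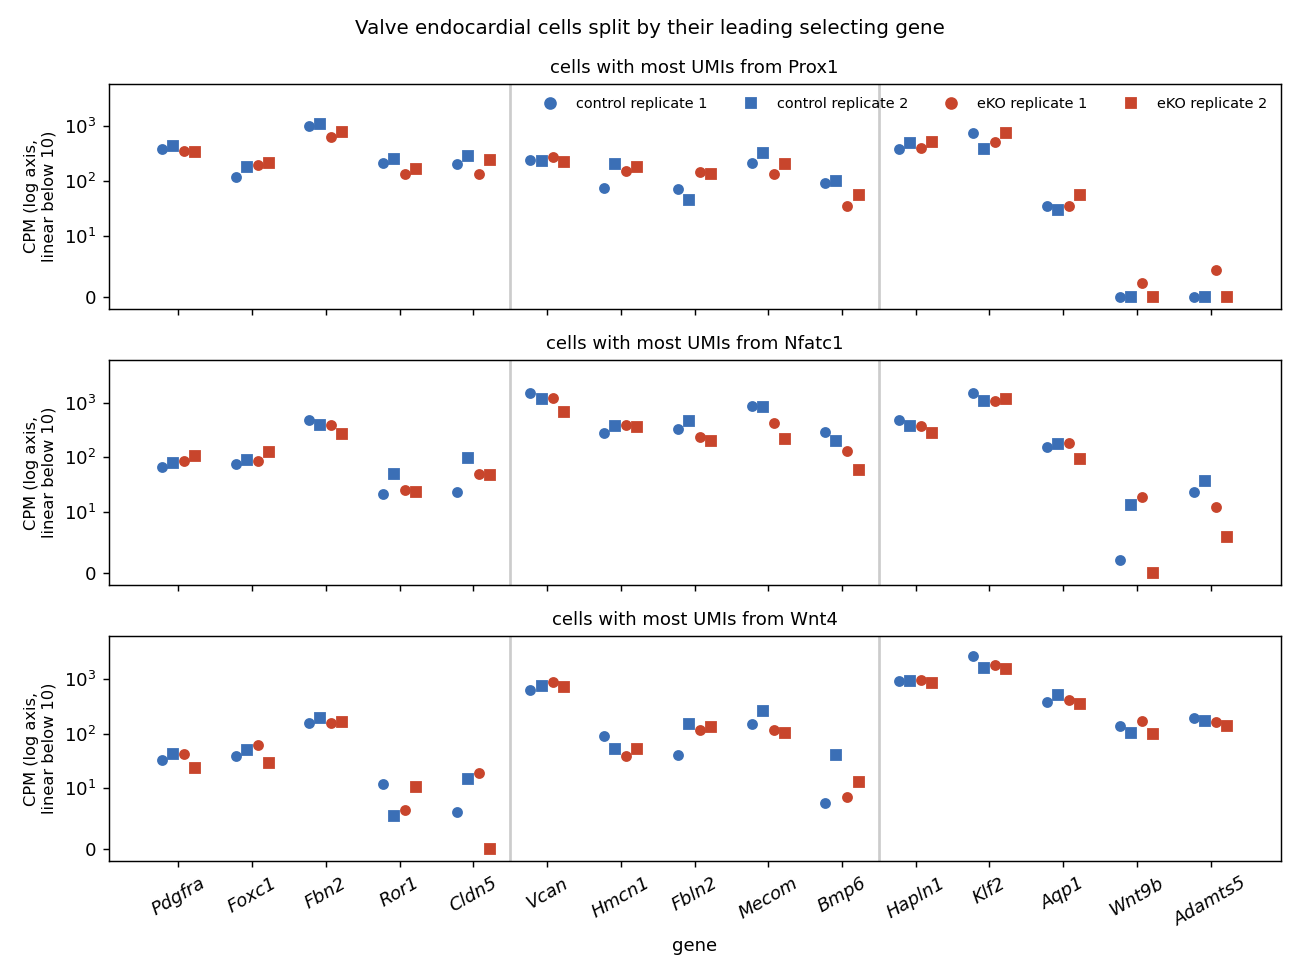
CPM (log axis) of 15 genes in valve cells split by the selecting gene with most UMIs, with each point 1 library and vertical lines between genes highest in Prox1-led, Nfatc1-led and Wnt4-led cells. Wnt9b lies between 99.4 and 170 CPM in Wnt4-led cells and at or below 18.8 CPM in the others.

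The plot of subset levels shows the levels of each subset by library, with Bmp6 and Mecom in the Nfatc1-led cells separate by genotype. Each of the 3 led subsets held 32 to 62 cells per library, and the tied cells numbered 12, 14, 21 and 20, which limits the precision of their levels.

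Ets1, the targeted gene, was at 221, 212, 98.4 and 103 CPM in valve cells. Both eKO libraries lay below both controls, and Ets1 fell by 1.05 on the log2 scale (standard error 0.15, edgeR quasi-likelihood, Benjamini-Hochberg adjusted p = 0.00443). The log2 fold change was -1.30 in mural endocardial and -1.15 in coronary endothelial cells, and the valve change did not pass a test of difference from either (adjusted p = 0.721 and 0.948). The counts come from 3' tags, and the floxed part of the gene is not stated in the sources used here, so a tag outside the deleted part would not measure the deletion. With 4000 UMIs drawn from each cell before the selection, which left 83, 99, 102 and 67 valve cells, the log2 fold change was -0.79 with an adjusted p of 0.482.

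Gm3331, a long intergenic noncoding RNA, was chosen for mention after its values were seen. It lies on the same strand of chromosome 9 and in GENCODE vM21 starts 55914 bases beyond the end of Ets1 (Ets1 chr9:32636221-32757820, Gm3331 chr9:32813734-32834104, both on the plus strand, GRCm38). RefSeq (GRCm38.p6) gives the gene 3 starts nearer to Ets1, with promoter windows at chr9:32782896-32783195, chr9:32787664-32787963 and chr9:32789367-32789666. Its UMIs in valve cells numbered 3, 1, 81 and 40, or 1.78, 0.625, 58.2 and 47.6 CPM. It was nearly absent from both controls and present in both eKO libraries. The gene thus passed the filter on low counts through the eKO libraries alone. Its ratio of CPM of 44.5 (exact 95% interval for counting error 17.0 to 166) and adjusted p of 7.89e-06 (edgeR) are given as description only. The 3' tags do not show where its transcripts start, and the cause was not tested.

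Across all 10291 genes tested in valve cells, 21 were higher and 23 lower in Ets1 eKO at an adjusted p of 0.05 (edgeR), which is 0.428% of the genes tested in either direction, 0.204% higher and 0.223% lower. Ednrb, a selecting gene, is 1 of the 21, so counts over the 20 other higher genes are given below. Log2 fold changes of all genes had a median of 0.01, and 1184 genes had an unadjusted p below 0.05. All 44 genes had groups that do not overlap, as did 4473 of the genes tested (43.5%). Absolute log2 fold changes ran from 0.76 to 5.42 with a median of 1.53 among the 20 higher genes besides Ednrb, and from 0.78 to 2.18 with a median of 1.11 among the lower. The value of 5.42 is that of Gm3331. Gm3331 and Slit3, which is described below, are among the 20 and passed the filter on low counts through the eKO libraries alone. Their part in these counts is description only.

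Counts moved with the processing. Scaling by total UMIs gave 20 higher and 44 lower genes, and DESeq2 gave 14 and 16. Leaving out a library raised the counts, with the lone library of its group assumed to vary like the others: 43 and 45 without control replicate 1, 52 and 51 without control replicate 2, 62 and 60 without eKO replicate 1, and 51 and 39 without eKO replicate 2. All 44 genes kept the sign of their change in each of these 4 fits. Removing the valve cells with more than 2% hemoglobin UMIs (2, 1, 2 and 3 cells), an alternative chosen after seeing the data, left 19 higher and 14 lower, all 33 of them among the 44. With 4000 UMIs drawn from each cell before the selection 4 genes were higher and 1 lower of 6193 tested, and 4 of these 5 are among the 44. Of the genes named by the rule and tested there, only Mt1 and Junb kept their calls. There the log2 fold change was 0.55 for Car8 (adjusted p = 0.767, edgeR) and 0.57 for Cldn11 (adjusted p = 0.848), against 1.11 and 1.38 with all UMIs.

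Wnt2, Nr2f2, Pappa and Nt5e were among the higher genes. Wnt2, a Wnt ligand gene, was at 19.6, 13.1, 46.0 and 40.4 CPM. Both eKO libraries lay above both controls, and Wnt2 rose by 1.46 on the log2 scale (standard error 0.27, adjusted p = 0.0217, edgeR). Nr2f2 encodes the nuclear receptor COUP-TFII, which sets venous and lymphatic identity, and its level was 63.4, 88.7, 149 and 157 CPM. It too was higher in both eKO libraries and rose by 1.07 (standard error 0.18, adjusted p = 0.0131). Pappa, a secreted protease that frees insulin-like growth factors from a binding protein, was at 12.5, 12.5, 50.3 and 40.4 CPM, with a log2 fold change of 1.93 and no overlap between groups (adjusted p = 0.00351). Nt5e, the ectoenzyme CD73 that makes adenosine, was at 13.6, 11.2, 69.7 and 34.5 CPM, and its 23, 18, 97 and 29 UMIs gave a log2 fold change of 2.18 (adjusted p = 0.00593). All 4 genes kept their direction when any library was left out, but without eKO replicate 1 the adjusted p was 0.0722 for Wnt2 and 0.056 for Nt5e, without control replicate 2 it was 0.0717 for Wnt2, and without control replicate 1 it was 0.0737 for Nr2f2. DESeq2 did not call Wnt2 (log2 fold change 1.47, adjusted p = 0.287), nor did edgeR with Prox1 (0.0529) or Wnt4 (0.0781) left out of the gate. Nr2f2 had 0.0876 without Nfatc1 and 0.0801 without Prox1 in the gate (edgeR).

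Mt1, Nupr1, Clu and Ifi27l2a were higher as well. Mt1, a metallothionein that binds zinc and copper, was at 70.6, 76.8, 348 and 344 CPM. The eKO libraries were nearly equal and far above the controls, and the log2 fold change was 2.29 (standard error 0.15, adjusted p = 2.41e-06, edgeR). Nupr1, a stress-induced nuclear protein, was at 95.5, 54.3, 179 and 183 CPM, and a lone cell held 47.2%, 11.5%, 16.1% and 30.5% of its UMIs. Clu, an extracellular chaperone, was at 21.9, 29.4, 66.1 and 55.9 CPM, and Ifi27l2a, an interferon-induced gene, at 8.89, 10.6, 38.8 and 26.2 CPM. For Clu a lone cell held 10.8%, 14.9%, 27.2% and 12.8% of the UMIs. Groups did not overlap for any of the 4. Log2 fold changes were 1.33 for Nupr1, 1.32 for Clu and 1.83 for Ifi27l2a, with adjusted p values of 0.00687, 0.0163 and 0.0149. Without eKO replicate 1 these adjusted p values were 0.126, 0.0574 and 0.0962, without eKO replicate 2 that of Nupr1 was 0.174, and without control replicate 1 that of Clu was 0.0561. DESeq2 gave 0.191 for Clu and 0.24 for Ifi27l2a, with log2 fold changes of 1.32 and 1.81. Without Nfatc1 in the gate Ifi27l2a had 0.15 (edgeR). Mt1 stayed past the threshold whichever library was left out.

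Lgals7, Serpinb1a, Cldn11 and Car8 were also among the higher genes. Lgals7, a galectin, was at 32.0, 61.2, 172 and 150 CPM, and the protease inhibitor gene Serpinb1a at 68.8, 60.0, 137 and 183 CPM. Cldn11, a tight junction claudin, was at 32.6, 28.7, 73.3 and 82.0 CPM, and Car8, a carbonic anhydrase relative without enzyme activity, at 54.6, 64.3, 110 and 139 CPM. Each was higher in both eKO libraries than in both controls. Log2 fold changes were 1.86, 1.35, 1.38 and 1.11 in that order, with adjusted p values of 0.00261, 0.00351, 0.00626 and 0.0131 (edgeR). For Lgals7 the adjusted p was 0.0632 without eKO replicate 1 and 0.0698 without eKO replicate 2, or 0.0714 without Nfatc1 in the gate, and the other 3 genes stayed past the threshold without any library. Serpinb1a was highest in Wnt4-led cells, at 150, 132, 365 and 332 CPM there, and Cldn11 was highest in Prox1-led cells in all 4 libraries.

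Bmp6, Unc5b, Thsd7a and Ccn1 were among the lower genes. Bmp6, a BMP ligand gene, was at 112, 133, 51.0 and 38.1 CPM. The eKO libraries lay below both controls, and Bmp6 fell by 1.37 on the log2 scale (standard error 0.20, adjusted p = 0.00443, edgeR). Unc5b, a netrin receptor of endothelial cells, was at 67.6, 71.8, 34.5 and 20.2 CPM and fell by 1.23 (adjusted p = 0.0344), and Thsd7a, a membrane protein with thrombospondin repeats, was at 138, 116, 49.6 and 58.3 CPM and fell by 1.19 (adjusted p = 0.00687). Ccn1, a matrix-bound signalling protein, was at 91.9, 64.3, 35.9 and 28.5 CPM and fell by 1.19 (adjusted p = 0.0361). Both eKO libraries were lower than both controls for each of these genes. The call for Ccn1 depended on single libraries, with adjusted p values of 0.148 without control replicate 1, 0.0504 without eKO replicate 1 and 0.0539 without eKO replicate 2, and for Unc5b the value without eKO replicate 2 was 0.0509.

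Other settings also ended calls of these 4 genes. With 4000 UMIs drawn from each cell before the selection none of the 4 was called. Adjusted p values (edgeR) were 0.106 for Bmp6, 0.733 for Unc5b, 0.464 for Thsd7a and 0.743 for Ccn1. Their log2 fold changes there were -1.73, -1.14, -0.97 and -0.87 in that order. Without Nfatc1 in the gate the adjusted p (edgeR) was 0.211 for Bmp6 (log2 fold change -1.11), which is highest in Nfatc1-led cells, 0.121 for Unc5b, 0.15 for Thsd7a and 0.164 for Ccn1. Without Prox1 in the gate it was 0.0865 for Unc5b, 0.0628 for Thsd7a and 0.0726 for Ccn1, and without Wnt4 it was 0.0798 for Ccn1. DESeq2 gave 0.282 for both Unc5b and Ccn1, with log2 fold changes of -1.26 and -1.20. Without cells above 2% hemoglobin the edgeR values were 0.062 for Unc5b and 0.0725 for Ccn1, and Ccn1 had 0.052 with at least 3 UMIs required of the valve genes.

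Clstn2, a calsyntenin of synaptic membranes, was at 51.6, 58.1, 13.6 and 8.32 CPM, from 87, 93, 19 and 7 UMIs. It had the largest fall of the 23 lower genes, by 2.18 on the log2 scale (standard error 0.28, adjusted p = 0.00261, edgeR), with both eKO libraries below both controls. Opcml, an adhesion protein of the IgLON family that sits on the outer membrane, was at 280, 178, 53.2 and 59.5 CPM and fell by 1.98 (adjusted p = 0.000566). Its groups were far apart, and its adjusted p was 0.127 without eKO replicate 1 and 0.0906 without eKO replicate 2, with log2 fold changes of -1.85 and -2.08.

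Mecom, Zbtb7c and Rfx2 encode transcription factors. Mecom was at 378, 472, 225 and 150 CPM and fell by 1.11 on the log2 scale (adjusted p = 0.0126, edgeR), and Zbtb7c, a zinc finger repressor, was at 96.7, 94.9, 46.7 and 38.1 CPM and fell by 1.10 (adjusted p = 0.0157). Rfx2, a factor of cilia genes, was at 59.3, 38.1, 13.6 and 15.5 CPM and fell by 1.70 (adjusted p = 0.018). The groups of all 3 were apart, and Rfx2 had an adjusted p of 0.0821 without eKO replicate 1. Mecom had 0.118 without Nfatc1 and 0.16 without Prox1 in the gate, Zbtb7c 0.0807 without Prox1, and Rfx2 0.0583 without Wnt4. DESeq2 gave 0.189 for Zbtb7c and 0.148 for Rfx2, with log2 fold changes of -1.10 and -1.69. Zbtb7c was highest in Wnt4-led cells (212, 203, 112 and 68.0 CPM there), while Mecom was highest in Nfatc1-led cells.

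**Figure D3:**
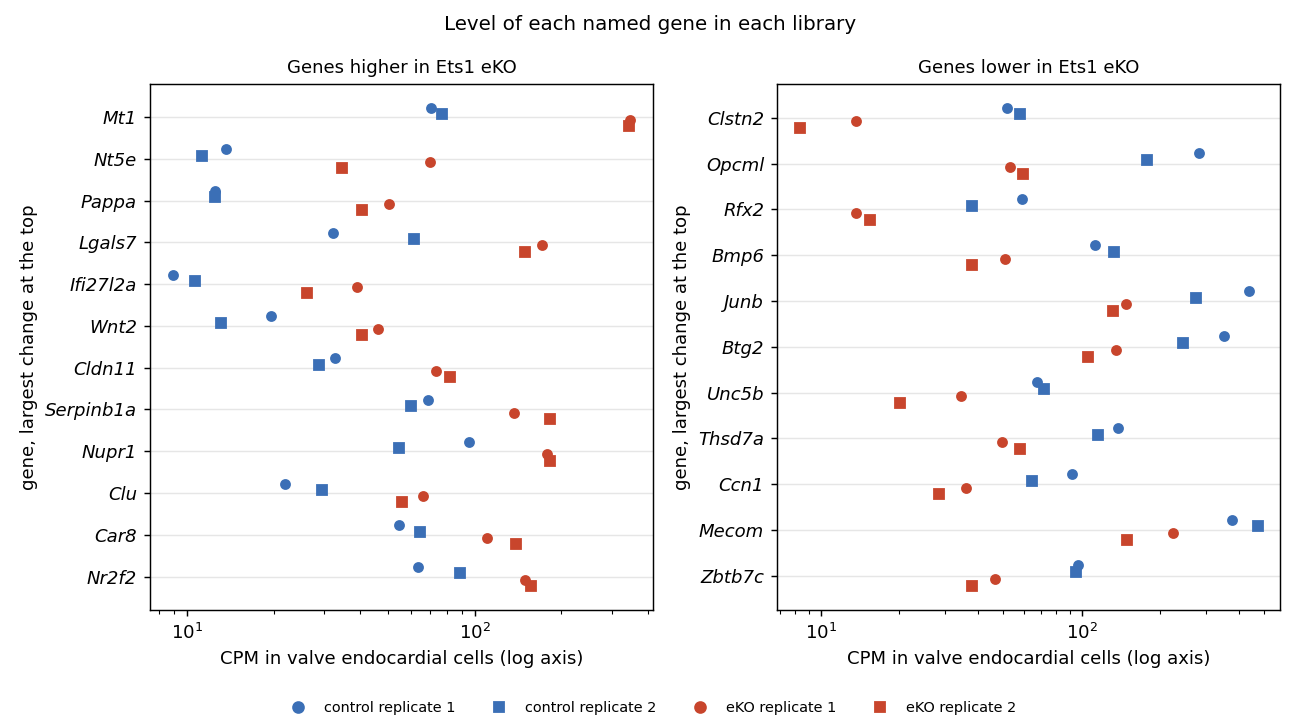
CPM in valve cells (log axis) of the 12 named genes higher and the 11 lower in Ets1 eKO, with each point 1 library. Both eKO libraries lie on the same side of both controls for each gene, from 70.6 and 76.8 to 348 and 344 CPM for Mt1 and from 51.6 and 58.1 to 13.6 and 8.32 CPM for Clstn2.

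The plot of named genes shows this distance between the groups, which the naming rule required, and how much the 2 libraries of a group differ. Early response genes are those that cells switch on within minutes of a stimulus and also during dissociation. Junb, a subunit of the AP-1 factor, was at 438, 274, 148 and 132 CPM and fell by 1.28 on the log2 scale (adjusted p = 0.00687, edgeR). Btg2, an antiproliferative protein, was at 352, 244, 135 and 106 CPM and fell by 1.23 (adjusted p = 0.00645), and Egr1, a zinc finger factor, was at 481, 307, 198 and 185 CPM and fell by 0.98 (adjusted p = 0.0347). Both eKO libraries were below both controls for the 3 genes, and control replicate 1 was the highest. Of 16 early response genes tested, 3 were lower and none higher, against 0.223% lower and 0.204% higher of all genes tested. All 16 had a negative log2 fold change, also under total UMI scaling. Their median was -0.88 against 0.01 for all genes, while DESeq2 gave 5 lower of 15. The median of the list was -0.81 in mural and -0.35 in coronary cells. The summed level of the list was 6390, 3830, 3386 and 3177 CPM, with Jun the most abundant (1337, 850, 956 and 859 CPM).

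The median of the early response list was -0.95 without eKO replicate 1 and -0.88 without eKO replicate 2, all 16 genes being negative. Without control replicate 2 it was -1.18. The early response result rested in part on control replicate 1. Without it 3 genes of the list were past the threshold, the median was -0.35 and 13 of 16 log2 fold changes were negative. Without control replicate 2 the number past the threshold was 10, without eKO replicate 1 it was 1, and without eKO replicate 2 it was 0 (edgeR). Adjusted p values without eKO replicate 1 and without eKO replicate 2 were 0.277 and 0.41 for Junb and 0.313 and 0.409 for Egr1, that of Egr1 was 0.251 without control replicate 1, and that of Btg2 was 0.0584 without eKO replicate 2. Log2 fold changes without eKO replicate 1 and without eKO replicate 2 were -1.33 and -1.24 for Junb and -0.99 and -0.97 for Egr1. Egr1 also had adjusted p values (edgeR) of 0.121 without Nfatc1 and 0.0856 without Wnt4 in the gate, and 0.0623 without cells above 2% hemoglobin. The share of mitochondrial UMIs given above also differed between the genotypes. What dissociation or RNA quality contributed was not tested.

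Promoters of the lower genes are shown because ETS factors bind a GGAA core. Windows from 250 bases before to 50 bases after the start were taken from RefSeq (GRCm38.p6) and searched on both strands for CCGGAAG, a strong ETS motif, and then, after it had given no match, for AGGAAG. The 2 motifs cannot share the same GGAAG on a strand, because the base before it differs. CCGGAAG was in 2910 of 32851 windows (8.86%), in 21.7% of the 8175 tested genes with a window, and in 0 of 12 higher (Ednrb left out) and 0 of 18 lower genes with a window. AGGAAG was in 35.4% of all windows, 36.6% of the tested genes, 2 of the 12 higher genes (Nr2f2 and Pde7b) and 8 of the 18 lower genes. A match of letters is no evidence of binding, and no match says only that the letters are not in the window. The 4 named lower genes with AGGAAG (or its reverse complement CTTCCT) are printed 5' to 3' along the gene, with the match in capitals: Opcml chr9:27791049-27791348 (plus strand), Junb chr8:84978699-84978998 (minus strand), Btg2 chr1:134079106-134079405 (minus strand) and Ccn1 chr3:145649936-145650235 (minus strand).
Opcml: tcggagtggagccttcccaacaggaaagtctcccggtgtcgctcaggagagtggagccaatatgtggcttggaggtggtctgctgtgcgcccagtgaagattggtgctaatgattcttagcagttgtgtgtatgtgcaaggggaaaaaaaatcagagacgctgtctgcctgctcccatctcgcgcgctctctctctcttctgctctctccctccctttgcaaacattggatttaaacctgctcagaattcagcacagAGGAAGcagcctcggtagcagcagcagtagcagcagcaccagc
Junb: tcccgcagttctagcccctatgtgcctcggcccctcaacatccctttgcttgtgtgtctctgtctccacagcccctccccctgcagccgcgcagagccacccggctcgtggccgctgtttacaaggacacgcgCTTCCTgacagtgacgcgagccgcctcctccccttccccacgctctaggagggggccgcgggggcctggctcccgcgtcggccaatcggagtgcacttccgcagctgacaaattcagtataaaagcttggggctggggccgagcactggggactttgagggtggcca
Btg2: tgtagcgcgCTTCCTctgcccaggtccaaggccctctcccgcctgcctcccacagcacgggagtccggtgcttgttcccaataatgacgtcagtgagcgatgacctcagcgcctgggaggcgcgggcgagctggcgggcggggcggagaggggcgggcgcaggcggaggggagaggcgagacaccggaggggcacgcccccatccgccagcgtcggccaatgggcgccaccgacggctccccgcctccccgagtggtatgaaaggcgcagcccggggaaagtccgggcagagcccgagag
Ccn1: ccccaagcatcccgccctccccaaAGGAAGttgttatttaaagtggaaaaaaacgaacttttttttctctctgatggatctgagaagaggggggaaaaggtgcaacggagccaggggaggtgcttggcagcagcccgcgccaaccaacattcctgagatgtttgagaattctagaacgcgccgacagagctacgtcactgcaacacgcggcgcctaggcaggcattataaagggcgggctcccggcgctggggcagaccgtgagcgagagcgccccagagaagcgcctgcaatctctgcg
The match begins 7 bases after the start in Opcml, and at -117 in Junb, -241 in Btg2 and -226 in Ccn1. The positions thus differ among the 4 genes.

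Some of these changes differed from those in the other endothelial classes of the same libraries. The test of the difference between valve and mural changes passed the threshold for 115 of 13006 genes (0.884%, edgeR), 38 with a more positive and 77 with a more negative change in valve cells, and the test between valve and coronary cells for 70 of 11758 genes (0.595%), 9 and 61. The 115 include 3 selecting genes (Adgrg6, Ednrb and Nfatc1) and the 70 none. Of the 20 higher genes besides Ednrb 5 were past the threshold in the mural test of difference and 4 in the coronary one, and of the 23 lower genes 6 and 8. Leaving out libraries moved these counts, to 52 without control replicate 1 and 71 without eKO replicate 2 against mural cells, and against coronary cells to 108 without control replicate 1, 127 without control replicate 2, 168 without eKO replicate 1 and 123 without eKO replicate 2. Removing doublets gave 116 for the coronary test.

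On the log2 scale Mt1 rose less in valve cells than in either other class. In mural cells its level was 7.73, 7.01, 240 and 214 CPM and in coronary cells 5.78, 10.6, 243 and 181 CPM. Valve cells had more Mt1 in CPM than the other classes in both controls and in both eKO libraries, and both eKO libraries lay above both controls in all 3 classes. The difference given here is in ratios and not in CPM. Mt1 log2 fold changes were 2.29 in valve, 5.0 in mural and 4.85 in coronary cells, and the difference was -2.72 from mural cells (standard error 0.17, adjusted p = 5.78e-09, edgeR) and -2.55 from coronary cells (adjusted p = 4.28e-05). In valve controls Mt1 UMIs came from 29 and 15 cells, and in eKO from 139 and 110 cells.

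Nr2f2, Car8 and Pde7b, which rose in valve cells, differed there from their changes in mural cells. Nr2f2 in mural cells was at 352, 310, 285 and 266 CPM, above the valve level in every library, and the difference between its changes was 1.26 (adjusted p = 0.00033, edgeR). Car8 was at 184, 148, 138 and 140 CPM in mural cells, with a difference of 1.29 from both mural and coronary changes (adjusted p = 0.00033 and 0.00129). Pde7b, a phosphodiesterase that breaks down cyclic AMP, was at 136, 160, 274 and 289 CPM in valve cells and 888, 985, 847 and 780 CPM in mural cells. Its log2 fold change in valve cells was 0.98 (adjusted p = 0.00687, or 0.0521 without control replicate 1), and the difference from mural cells was 1.11 (adjusted p = 2.11e-05) and from coronary cells 0.91 (adjusted p = 0.00393). All 3 genes are thus more abundant in mural than in valve controls, and their valve levels in eKO lay between. The mural genes used for the selection were also higher in both eKO valve libraries, with Adgrg6, an adhesion receptor, at 31.4, 33.1, 40.9 and 58.3 CPM beside the Npr3 and Ednrb levels above, and this is a description of selecting genes. The 5 mural markers that the selection did not use had a median log2 fold change of 0.08, 4 of them positive and none past the threshold (edgeR). That median was -0.05 without control replicate 1 and 0.25 without control replicate 2. Their part in these changes was not tested.

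Some of these calls changed with the processing. With Prox1 left out of the valve gate Pde7b had a log2 fold change of 0.48 in valve cells (adjusted p = 0.37, edgeR). With 4000 UMIs drawn before the selection, Car8 differed by 0.79 from mural cells (adjusted p = 0.292) and by 0.57 from coronary cells (adjusted p = 0.794), and Nr2f2 by 0.95 from mural cells (adjusted p = 0.062).

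Bmp6 and Clstn2 fell more in valve than in mural cells. Bmp6 was at 82.2, 84.0, 62.0 and 61.7 CPM in mural cells and 18.7, 18.7, 19.7 and 22.6 CPM in coronary cells, with differences of -1.0 (adjusted p = 0.00463, edgeR) and -1.59 (adjusted p = 0.00309). Clstn2 was between 4.36 and 5.72 CPM in the mural libraries, and its difference was -2.14 (adjusted p = 0.00579). Without eKO replicate 2 the mural difference of Bmp6 had an adjusted p of 0.0607, and that of Clstn2 had 0.0763, or 0.0879 without control replicate 1. With 4000 UMIs drawn first the Clstn2 difference was -1.53 (adjusted p = 0.672). Opcml in coronary cells was at 1.70, 0.935, 7.60 and 4.28 CPM, and from these low levels it rose by 2.10 on the log2 scale (adjusted p = 0.0447, edgeR). The difference of Opcml from coronary cells was -4.15 (adjusted p = 0.000115), which joins this rise with the valve log2 fold change of -1.98. In mural cells Opcml was at 98.6, 132, 80.1 and 55.9 CPM, and the difference of -1.33 did not pass the test (adjusted p = 0.747).

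Thsd7a, Mecom, Junb and Egr1 also fell more in valve than in coronary cells. The differences were -0.97, -0.94, -0.72 and -0.68, with adjusted p values of 0.0225, 0.000466, 0.0206 and 0.00949 (edgeR), and against mural cells only Thsd7a passed (-0.95, adjusted p = 0.0303). Mecom kept its call whichever library was left out. Without eKO replicate 1 the coronary difference had an adjusted p of 0.21 for Thsd7a and 0.0515 for Egr1, and without eKO replicate 2 it had 0.187 for Junb. The mural difference of Thsd7a had 0.482 without control replicate 1 and 0.479 without eKO replicate 1. With 4000 UMIs drawn first the coronary difference had 0.504 for Thsd7a and 0.284 for Mecom, and the mural difference of Thsd7a had 0.634.

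Further genes were named for the smallest p values of the valve and mural test of difference. Nts, the neurotensin precursor, was at 435, 246, 504 and 466 CPM in valve cells and 257, 203, 97.1 and 74.1 CPM in mural cells. Its valve change did not pass the test (log2 fold change 0.57, adjusted p = 0.33, edgeR), and the difference between classes was 1.96 (adjusted p = 1.78e-05), also with each library left out. In coronary cells Nts was at 237, 331, 427 and 527 CPM and rose by 0.83 (adjusted p = 0.0431), and the valve change did not pass the test of difference from that (-0.23, adjusted p = 0.971). Fbn2 was at 503, 516, 387 and 353 CPM in valve and 113, 130, 182 and 170 CPM in mural cells, and Slc1a3, a glutamate transporter, at 197, 196, 132 and 113 CPM in valve and 17.1, 15.3, 33.6 and 23.2 CPM in mural cells. The eKO libraries lay below the controls in valve cells and above them in mural cells for both genes, with differences of -1.01 and -1.51 (adjusted p = 4.55e-05 for each). In valve cells alone neither passed the test (adjusted p = 0.311 and 0.0894).

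**Figure D4:**
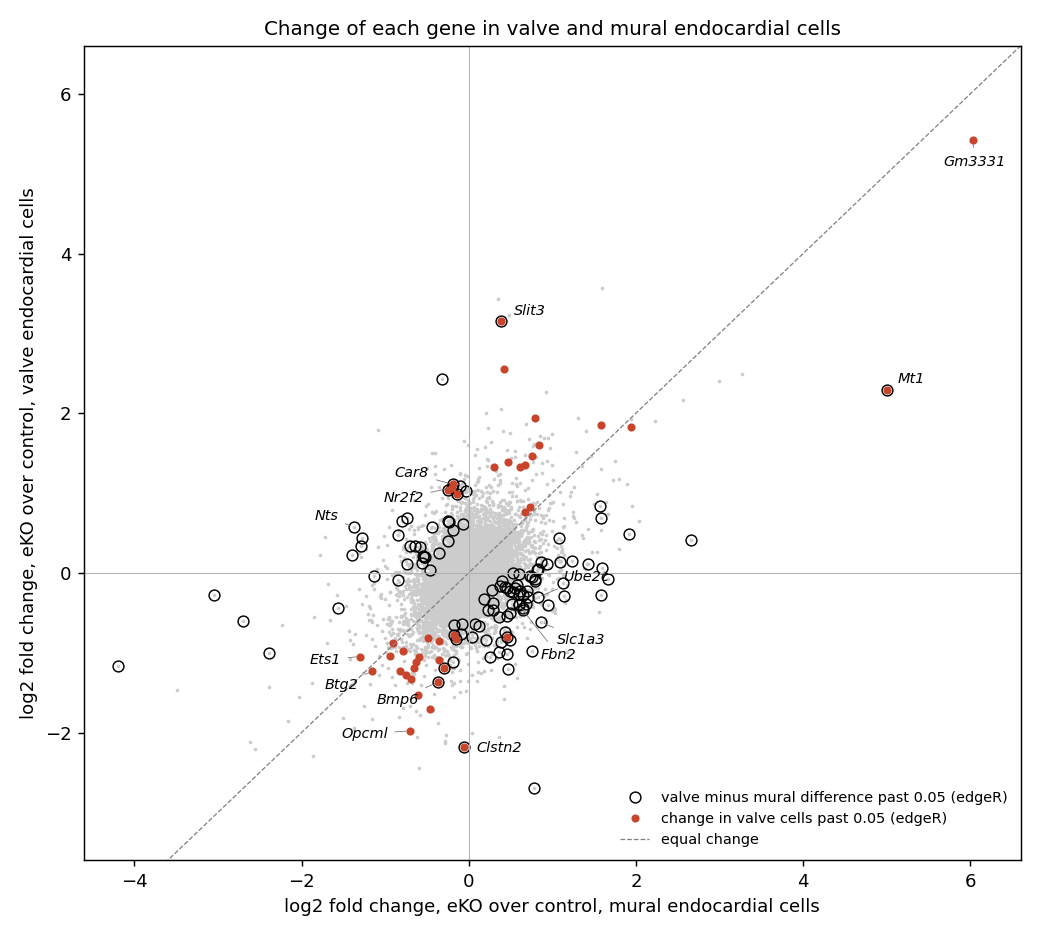
Log2 fold change (eKO over control) of each gene tested in both classes, with mural cells on the horizontal and valve cells on the vertical axis, red for genes past the threshold in valve cells and open circles for genes whose change differs between the classes. Mt1 lies at 5.0 in mural and 2.29 in valve cells, and Clstn2 at -0.06 and -2.18.

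The plot of valve against mural changes shows both kinds of gene, with Ets1 and Btg2 close to the line of equal change (difference of 0.22 and -0.07, neither past the threshold). The lists of pathway genes gave few single calls in valve cells. For this and the later list counts, the shares over all 10291 genes tested were 0.204% higher and 0.223% lower. An unadjusted p below 0.05 (edgeR) was found for 1184 of all genes. For TGF-beta and BMP signalling 1 of 31 tested genes was lower (Bmp6) and none higher, with a median log2 fold change of -0.16 and 6 at an unadjusted p below 0.05, and for Wnt signalling 1 of 30 was higher (Wnt2, not called by DESeq2) and none lower, with a median of -0.23 and 9 unadjusted. The guidance list had 1 gene higher and 1 lower (Unc5b) of 17, a median of -0.42 and 8 unadjusted. Its higher gene was Slit3, a secreted guidance cue, at 2.96, 4.37, 25.9 and 40.4 CPM. These were 5, 7, 36 and 34 UMIs, which came from 4, 6, 9 and 8 cells. A lone cell held 36.1% and 26.5% of them in the eKO libraries. In valve cells Slit3 thus passed the filter on low counts through the eKO libraries alone, and its valve test and its differences from other classes are description only. The log2 fold change of Slit3 was 3.16 (adjusted p = 0.00261, edgeR), and the difference from mural cells, where it was at 61.0, 36.5, 63.6 and 59.1 CPM, was 2.76 (adjusted p = 0.000992, or 0.129 without control replicate 1). Slit3 also rose in coronary cells (2.21, 1.56, 5.46 and 9.54 CPM, log2 fold change 2.01, adjusted p = 0.03), with no difference from valve cells past the threshold (adjusted p = 0.603). Without Nfatc1 in the gate the valve change of Slit3 had an adjusted p of 0.0589.

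No gene passed the edgeR test in the Notch list (20 tested, median log2 fold change -0.11, 7 at an unadjusted p below 0.05), the list of flow and valve genes (17 tested, median -0.16, 4 unadjusted), the VEGF and calcineurin list (21 tested, median -0.10, 6 unadjusted), the list of factors of endothelial-to-mesenchymal transition (13 tested, median -0.10, 3 unadjusted) or the retinoic acid list (8 tested, median 0.27, 0 unadjusted). DESeq2 also called none in these 5 lists. In the Notch list 1 gene was higher with the replicate block, and 1 of 26 was higher and 1 lower with no filter on low counts. With no filter 1 gene was also lower in the VEGF and calcineurin list and 1 in the transition list. Klf2 was at 1660, 1029, 1115 and 1171 CPM, and Notch1 at 267, 231, 189 and 210 CPM. Klf2 was highest in control replicate 1, with the other control below both eKO libraries, whereas Notch1 was lower in both eKO libraries (log2 fold change -0.26, adjusted p = 0.543). Among ETS family genes Ets1 was the only 1 of 16 tested past the threshold, and the median was -0.27. Erg was at 184, 223, 178 and 131 CPM and Fli1 at 235, 212, 186 and 189 CPM, with adjusted p values of 0.489 and 0.639 and both eKO libraries lower for each.

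Of 15 genes chosen because the study names them, 12 were tested and none was past the threshold by edgeR or DESeq2. Their median log2 fold change was -0.01, with 3 at an unadjusted p below 0.05. With the replicate block 1 was higher, and with no filter on low counts 1 of 15 was higher and 1 lower. The study picked some of them on these samples, while it takes others, such as Kdr and Sox18, from the authors' previous study. For Kdr and Sox18 it also reports lower levels in eKO coronary cells of these samples, and for Nrg1 in eKO endocardium. The choice of these genes is thus not independent of these data. Compared with mural cells, 3 of 14 had a more positive change in valve cells, against 38 of all 13006 genes tested. Kdr, the main VEGF receptor, was at 94.3, 127, 139 and 125 CPM in valve and 299, 334, 222 and 186 CPM in mural cells, with a difference of 0.88 (adjusted p = 0.00138, edgeR). Nrg1, an ERBB ligand, was at 194, 204, 260 and 245 CPM in valve and 301, 324, 242 and 263 CPM in mural cells (difference 0.65, adjusted p = 0.00616), and Sox18 at 37.4, 30.6, 13.6 and 20.2 CPM in valve and 38.8, 26.3, 4.41 and 7.36 CPM in mural cells (difference 1.46, adjusted p = 0.0388). Kdr and Nrg1 were lower in eKO mural cells and not in eKO valve cells, while Sox18 was lower in both, and none of the valve changes passed the test. Without control replicate 2 the number of such genes was 5, and without eKO replicate 1 it was 1. Dlk1, a Notch ligand relative, had 0, 6, 13 and 33 UMIs in valve cells, or 0, 3.75, 9.34 and 39.2 CPM. It did not pass the test (adjusted p = 0.43, edgeR). A lone cell held 33.3%, 38.5% and 39.4% of its UMIs in control replicate 2, eKO replicate 1 and eKO replicate 2. The study reports Hmcn1, Slit2 and Col18a1 as lower in eKO in each type of cardiac endothelium it set apart, valve endocardium among them. It found its valve cells by clustering and not by the selection used here. None of these genes was past the threshold here. Col18a1 was at 508, 572, 481 and 454 CPM in valve cells, lower in both eKO libraries.

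In the list of valve matrix genes 1 of 32 tested was lower (Ccn1), none was higher, 9 had an unadjusted p below 0.05, 23 log2 fold changes were negative and the median was -0.18, while DESeq2 gave 2 lower. Elastin (Eln) was at 234, 395, 149 and 128 CPM, with a log2 fold change of -1.12 that did not pass (adjusted p = 0.0633, edgeR), and its difference from mural cells (37.6, 61.1, 46.7 and 36.3 CPM) was -0.94 (adjusted p = 0.000715). Both eKO libraries had less Eln than both controls in valve cells and not in mural cells. Of all 13006 genes tested for the difference from mural cells, 77 had a more negative change in valve cells. Versican (Vcan), at 750, 733, 772 and 554 CPM, also differed from mural cells (-0.51, adjusted p = 0.0257), as did 2 collagen genes of the mesenchyme list below, so that 4 of 32 matrix genes had a more negative change in valve cells (1 without eKO replicate 2). Basement membrane genes had none of 17 past the threshold and a median of -0.03 (2 unadjusted), and junction genes none of 15 and a median of -0.17 (3 unadjusted), with none by DESeq2 either.

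Genes of cell division were compared as lists and as shares of cells. None of 22 genes of the G2 and M phases passed the edgeR or DESeq2 test in valve cells (4 unadjusted), with a median log2 fold change of -0.28 and 21 of 22 negative. In mural cells the median was 0.59. The difference between the classes was past the threshold for 12 of 22 genes, all more negative in valve cells. Of all 13006 genes tested for this difference, 77 were more negative. The median difference was -0.88 against -0.02 for all genes. Ube2c, which helps degrade cyclins, was at 299, 244, 167 and 259 CPM in valve and 115, 117, 141 and 250 CPM in mural cells (difference -1.10, adjusted p = 8.29e-05, edgeR), and Cdk1, the mitotic kinase, at 145, 144, 64.7 and 93.9 CPM in valve and 88.8, 102, 76.3 and 133 CPM in mural cells (difference -0.99, adjusted p = 0.00143). Ube2c was higher in the eKO mural libraries than in the mural controls, while its valve groups overlapped, and Cdk1 was lower in both eKO valve libraries. All 22 differences were negative with any library left out, but the number past the threshold was 2 without control replicate 1 and 7 without eKO replicate 2. Genes of the S phase had none of 20 past the threshold (median 0.12 in valve and 0.31 in mural cells, 1 unadjusted, none by DESeq2).

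With 2000 UMIs drawn from each cell, 29.0%, 28.4%, 22.0% and 29.1% of valve cells had a UMI from Top2a or Mki67, genes of dividing cells. The groups overlapped, the mean difference was -3.16 percentage points, and the exact permutation p over libraries was 1 (two-sided, smallest possible 0.333). Without eKO replicate 1 the difference was 0.35 points and without eKO replicate 2 it was -6.68 points. In mural cells the shares were 13.0%, 17.8%, 20.2% and 22.8%, both eKO above both controls (exact permutation p = 0.333), and in coronary cells 41.6%, 44.5%, 39.9% and 39.4%, both eKO below both controls by 3.48 points on average (exact permutation p = 0.333). With all UMIs of each cell the valve shares were 43.8%, 38.9%, 40.8% and 38.5%, at the median depths given above. Mural cells of control replicate 1, with 13.0%, had the lowest share of the 12, and what RNA from outside the cells adds to these shares was not tested.

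The share of valve cells among valve and mural endocardial cells was 13.3%, 17.6%, 14.6% and 7.60%. The eKO replicate 2 library was the lowest, with an exact 95% interval of 6.46% to 8.87% that lies below those of the other 3, and eKO replicate 1 lay between the controls. The mean difference was -4.32 percentage points, with an exact permutation p of 0.667 (two-sided, smallest possible 0.333), and it was -6.44 points without control replicate 1, -2.19 without control replicate 2, -7.82 without eKO replicate 1 and -0.807 without eKO replicate 2. The selection uses UMI numbers, and with 4000 UMIs drawn from each cell first the shares were 8.50%, 13.4%, 11% and 6.04%, in the same order of libraries, but the exact 95% interval of eKO replicate 2 (4.71% to 7.61%) then overlapped that of control replicate 1 (6.83% to 10.4%). Without Wnt4 in the valve gate they were 11.5%, 14.6%, 11.5% and 4.99%, with eKO replicate 1 just below control replicate 1, so that both eKO libraries lay below both controls by 4.85 points on average (exact permutation p = 0.333).

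**Figure D5:**
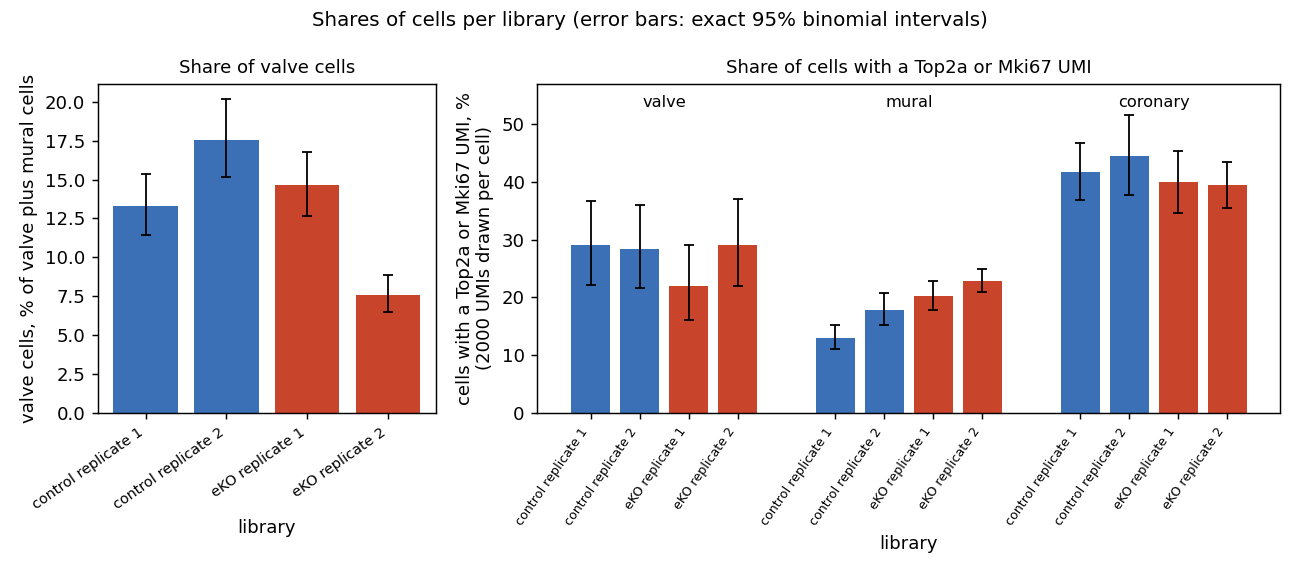
Share of valve cells among valve and mural cells (left) and share of cells with a Top2a or Mki67 UMI at 2000 UMIs per cell in 3 classes (right), in percent per library, with exact 95% binomial intervals as error bars. Valve shares are 13.3%, 17.6%, 14.6% and 7.60%, and the share of valve cells with a Top2a or Mki67 UMI lies between 22.0% and 29.1%.

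The plot of shares shows that the intervals of the valve cells overlap for the Top2a or Mki67 share in all 4 libraries. The intervals cover counting error only and not differences between embryos.

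Markers of other cell types were measured in the same sums. The 14 cardiomyocyte genes, 4 of them used for the selection, added up to 1137, 672, 1090 and 1535 CPM with Myl2 the most abundant (201, 94.9, 170 and 225 CPM), and all 14 were detected. The 10 genes that the selection did not use summed to 728, 407, 693 and 1023 CPM. None of these passed the edgeR or DESeq2 test, and all 10 log2 fold changes were positive with a median of 0.62 (2 unadjusted). With UMIs drawn before the selection 6 of 8 tested were positive, and without the filter on low counts 1 passed. Without control replicate 1 there were 4 of these 10 past the threshold with a median of 1.13, without eKO replicate 1 there were 2, and medians without control replicate 2 and without eKO replicate 2 were 0.23 and 0.22. Erythroid genes had 1 of 7 tested past the threshold, Hbb-bs, an adult beta globin gene, with a list median of 1.60. Its CPM was 1794, 2670, 5238 and 7697, and a lone cell held 50.3%, 98.9%, 80.0% and 58.3% of its UMIs, so its log2 fold change of 1.60 (adjusted p = 0.00626, edgeR) rested on single cells, with adjusted p values of 0.147 without control replicate 1 and 0.117 without eKO replicate 2. Without cells above 2% hemoglobin the log2 fold change was 0.30 (adjusted p = 0.917), with doublets removed 0.51 (0.969), and no other valve gate kept the call. Their part in the other changes was not tested, beyond the counts without high-hemoglobin cells.

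Mesenchyme markers summed to 1586, 1386, 1524 and 1345 CPM, with Col3a1 the most abundant (524, 488, 461 and 373 CPM). None of the 14 passed the edgeR or DESeq2 test (median log2 fold change -0.06, 5 unadjusted), and none was at 0 in all libraries. Against mural cells 3 of 14 had a more negative change, beside 77 of all 13006 genes tested. Lum, a matrix proteoglycan, was at 35.6, 21.2, 38.1 and 39.2 CPM in valve and 23.5, 13.0, 72.6 and 61.8 CPM in mural cells (difference -1.47, adjusted p = 0.00258, edgeR), and Col1a2 and Col3a1 had differences of -0.76 and -0.50 (adjusted p = 0.0131 and 0.0346). Lum was higher in both eKO mural libraries than in both mural controls, with smaller gaps in valve cells. Without control replicate 1 none of the 3 remained past the threshold.

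Epicardial genes summed to 13.6, 12.5, 20.8 and 44.0 CPM and none was tested, the most abundant being Wt1 (5.93, 6.25, 5.03 and 16.6 CPM), and leukocyte genes summed to 30.8, 19.4, 22.3 and 30.9 CPM, with Cx3cr1 the most abundant (26.1, 13.7, 13.6 and 17.8 CPM) and 1 gene tested, not past the threshold. Lymphatic genes summed to 365, 377, 282 and 321 CPM and had none of 4 tested past the threshold (median -0.19, 1 unadjusted). The 8 coronary genes besides Fabp4 summed to 1726, 1534, 1657 and 2421 CPM, most of it Fabp5 (1695, 1474, 1620 and 2383 CPM), and none of 4 tested passed (median 0.34, 1 unadjusted), while 1 was lower without control replicate 1 and 1 higher without eKO replicate 1, and the median of all 8 without the filter on low counts was -0.06. DESeq2 called none in either list, with 1 coronary gene tested. Mural markers outside the selection, among them Nrg1 and Cgnl1, had none past the threshold by edgeR or DESeq2 (1 unadjusted), and summed to 1013, 1158, 1128 and 1070 CPM with Cgnl1 the most abundant (430, 512, 425 and 427 CPM). Sex-linked genes had none of 6 past the threshold by edgeR or DESeq2 (median -1.04, 1 unadjusted), and their levels followed the pools described above.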

How the data were processed

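Ventricles were dissociated with trypsin and sequenced as 10x 3' v3.1 libraries. The deposited matrices hold raw UMI counts that the authors made with Cell Ranger 7.1.0 on mm10, for 32285 gene IDs and called barcodes only, and values were not normalized further. The 4 libraries hold 124140739, 76931208, 95131419 and 102872196 UMIs in 12641, 7949, 10010 and 14951 barcodes.

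The UMIs of the selected cells were summed per library and class. From these sums CPM (UMIs of a gene per 1e6 UMIs of the summed cells) and log2 fold changes (eKO over control) were computed, and edgeR 4.0.16 in R 4.3.3 tested the genes by quasi-likelihood with TMM scaling, filterByExpr and Benjamini-Hochberg adjustment at 0.05, after a check on simulated data. Standard errors are the absolute log2 fold change over the root of F. Differences between classes were tested as class by condition terms on 8 sums, with library as a factor. DESeq2 1.42.0 was the other tool. Shares were compared by exact permutation over libraries, with exact (Clopper-Pearson) 95% intervals, and 2000 UMIs were drawn per cell for shares of cells with a UMI. Tables and plots used Python 3.11.15 with matplotlib 3.10.9, pandas 2.3.3, numpy 2.4.6, scikit-learn 1.9.0 and scipy 1.17.1.

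Alternatives were total UMI scaling, no filter on low counts, DESeq2, doublets removed, a block for the replicate number, leaving out each library, 4 other valve gates, lymphatic cells left out, 4000 UMIs drawn per barcode before the selection, and, added after seeing the data, cells above 2% hemoglobin left out.

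Members and lists were chosen with earlier results of these data known. Named were Ets1, the 12 genes of largest change in each direction past the threshold with groups that do not overlap and a mean of at least 20 CPM, the 5 genes of smallest p in the valve by mural term, list members past the threshold (up to 4 per list) and the markers. Selecting, sex-linked, mitochondrial, hemoglobin and ribosomal protein genes and unnamed gene models were left out of the ranked choices, and 1 gene of the ranked choices is not reported here. Other genes given as examples (those of the subsets, and members of lists that did not pass) were chosen after their values were seen.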

Additional observations from a re-analysis of the deposited data

Results flagged for a closer look

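These results stand out because the change in valve cells differed from the change in another class of the same libraries, by the class by condition term at an adjusted p of 0.05 (edgeR). Each value is the valve log2 fold change minus that of the other class. Where a gene is given with mural or coronary cells alone, its difference from the remaining class did not pass the test.

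Mt1 differed by -2.72 from mural and by -2.55 from coronary cells. Car8 differed by 1.29 from mural and by 1.29 from coronary cells, and Nr2f2 by 1.26 from mural cells. Pde7b differed by 1.11 from mural and by 0.91 from coronary cells. Nts differed by 1.96 and Slit3 by 2.76 from mural cells. The valve change of Nts did not pass the test (0.57, adjusted p = 0.33, edgeR), and Nts fell in mural cells (-1.37). Slit3 had only 5 and 7 UMIs in the valve controls and passed the filter on low counts there through the eKO libraries, so its difference is description only. In coronary cells both genes rose (log2 fold change 0.83 with adjusted p = 0.0431 and 2.01 with adjusted p = 0.03, edgeR), so neither change sets valve cells apart from both classes.

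Clstn2 differed by -2.14 from mural cells, and Opcml by -4.15 from coronary cells. The Opcml value joins a fall in valve cells (-1.98) with a rise in coronary cells (2.10), where the controls had only 1.70 and 0.935 CPM. Bmp6 differed by -1.0 from mural and by -1.59 from coronary cells, and Thsd7a by -0.95 and -0.97. Fbn2 differed by -1.01 and Slc1a3 by -1.51 from mural cells. From coronary cells Mecom differed by -0.94, Junb by -0.72 and Egr1 by -0.68.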

How the results depend on the processing

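All 44 genes kept the sign of their change wherever they were tested, except 1 of 37 with 4000 UMIs drawn before the selection. Of 523 values of 33 named genes besides Ets1, 427 were the same, 93 weaker, 2 stronger and 1 reversed. The 33 include Nts, Fbn2, Slc1a3, Hapln1 and Cyp26b1, which did not pass in valve cells and count as the same while uncalled. With UMIs drawn before the selection 7 were the same, of which only Mt1 and Junb were calls. The reversed value was Hbb-bs with UMIs drawn before the selection (-3.62, adjusted p = 0.904), where Ets1 had -0.79 (adjusted p = 0.482). The cause was not tested.

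Genes higher in eKO numbered 84 with no filter on low counts, 4 with UMIs drawn before the selection, 11 without Nfatc1 in the gate, 13 without Prox1 in the gate and 43 to 62 with a library left out. Genes lower numbered 183, 1, 10, 13 and 39 to 60 in that order, 44 under total count scaling, and 14 without cells above 2% hemoglobin, an alternative chosen after seeing the data. Differences from mural cells numbered 226 with no filter, 51 with UMIs drawn first and 52 to 145 with a library left out. Differences from coronary cells numbered 205 with no filter, 116 with doublets removed and 108 to 168 with a library left out. The cause was not tested.

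The difference in the Top2a or Mki67 share ran from -6.68 to 0.35 points with a library left out, and turned positive without eKO replicate 1.

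With the replicate block 19 genes were higher and 13 lower, and Ets1 had -1.05 (adjusted p = 0.0385, edgeR). Of the 44 genes 25 were called there. Named genes that lost their calls were Wnt2, Clu, Ifi27l2a, Unc5b, Mecom, Zbtb7c and Egr1, with adjusted p values (edgeR) of 0.0534 to 0.111. The numbers 1 and 2 are not stated to pair the libraries, and the correlation of same-numbered deviations was -0.000127 over 10291 genes.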
